A study of Mus musculus with 14 samples.

Results

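The casein genes encode the main proteins of milk, and 5 of them are present on the array used here: Csn1s1, Csn1s2a, Csn1s2b, Csn2 and Csn3. Their probe sets were taken as those for which the platform annotation names exactly 1 of these symbols, which gave 10 of the 22690 probe sets on the array and 5 of the 12394 genes it names: 1 for Csn1s1, 4 for Csn1s2a, 1 for Csn1s2b, 2 for Csn2 and 2 for Csn3. The samples were whole 4th inguinal mammary glands of untreated female CD1 mice, an outbred strain with no allele or agent named in the labels, collected across puberty at 3, 4, 5, 6 and 7 weeks of age (3wk to 7wk) after removal of the lymph nodes. RNA from at least 3 mice was pooled for each of the 14 arrays, which are lettered A to C at every age except 5wk, where there are only A and B. Each value is a ratio, the signal of a probe set over its median across the series, so it follows 1 probe set with age and cannot be set against another probe set's level. P-values measure the spread between pools, and it is not given whether any mouse entered more than 1 pool. The number of arrays limits the precision.

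Caseins are made by luminal cells of the mammary epithelium, above all by the secretory alveolar cells that form in pregnancy. Csn1s1, Csn1s2a, Csn1s2b and Csn2 encode the calcium-sensitive caseins, which bind calcium phosphate through phosphorylated serines, and Csn3 encodes kappa-casein, which coats the casein micelle and keeps it in suspension. Prolactin, acting through the kinase JAK2 and the transcription factor STAT5, is the best known inducer of these genes, together with glucocorticoid and the factors C/EBPβ, ELF5 and NF1. A low level of casein mRNA is known from the epithelium of virgin glands. In RNA from a whole gland, fewer cells of a type and less RNA per cell cannot be told apart.

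The casein genes lie next to each other on mouse chromosome 5. In the RefSeq gene order of GRCm38.p6 they run Csn1s1, Csn2, Csn1s2a, Csn1s2b and then, after Prr27, Odam and BC037156, Csn3. RefSeq promoter sequences of 300 bases, from 250 bases before the annotated start to 50 after it, were on hand for Csn1s1, Csn2 and Csn1s2a, 3 of the genes that were called higher with age, and they are shown here for the letters of known casein promoter elements. Csn1s1 is at chr5:87665958-87666257 on the plus strand, Csn2 at chr5:87699376-87699675 on the minus strand and Csn1s2a at chr5:87774200-87774499 on the plus strand. Each is printed 5′ to 3′ on the strand of its gene. Capitals mark matches on either strand to TTCNNNGAA, the spacing of the STAT5 consensus, and to ATTNGCAT, the form of the octamer element known from the Csn2 promoter.
Csn1s1: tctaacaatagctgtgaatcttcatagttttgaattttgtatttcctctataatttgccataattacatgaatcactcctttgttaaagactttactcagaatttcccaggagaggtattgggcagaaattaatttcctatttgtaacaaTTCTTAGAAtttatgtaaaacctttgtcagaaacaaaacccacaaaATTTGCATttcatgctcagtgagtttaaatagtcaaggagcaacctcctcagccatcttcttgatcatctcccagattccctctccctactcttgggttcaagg
Csn2: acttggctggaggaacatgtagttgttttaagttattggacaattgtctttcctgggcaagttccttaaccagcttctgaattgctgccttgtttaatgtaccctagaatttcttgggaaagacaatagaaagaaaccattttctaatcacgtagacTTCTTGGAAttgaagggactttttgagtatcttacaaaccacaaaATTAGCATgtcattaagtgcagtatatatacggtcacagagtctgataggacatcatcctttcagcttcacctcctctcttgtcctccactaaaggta
Csn1s2a: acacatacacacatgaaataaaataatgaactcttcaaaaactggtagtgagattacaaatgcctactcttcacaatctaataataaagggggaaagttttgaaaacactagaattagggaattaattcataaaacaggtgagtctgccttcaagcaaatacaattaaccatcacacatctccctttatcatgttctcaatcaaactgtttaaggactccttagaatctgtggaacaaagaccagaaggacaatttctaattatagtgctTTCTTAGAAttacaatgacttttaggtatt
Csn1s1 holds TTCTTAGAA at positions -100 to -92 from the annotated start, and Csn2 holds TTCTTGGAA at -93 to -85. Downstream of these, the octamer form appears as ATTTGCAT at -54 to -47 in Csn1s1 and as ATTAGCAT at -48 to -41 in Csn2. Csn1s2a has its only match, TTCTTAGAA, at 21 to 29, after the annotated start. The 2 motifs do not overlap each other. Among all 32851 RefSeq promoters of this length, 8.30% hold TTCNNNGAA and 3.15% hold ATTNGCAT. A match describes these letters only.

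Levels were first set beside the background of the array. For 6 of the 10 casein probe sets the level before division by the median could be recovered in steps, the smallest unit in which the original signals had been written, and 200 steps was taken as the level below which signals were not trusted. Both Csn1s2a probe sets that followed age, 1420633_a_at and 1436170_a_at, had 4246 to 11896 and 4436 to 11376 steps at 7wk. They were below 200 steps on all arrays of 3wk and 4wk, at 11 to 122 and 8 to 26 steps. Csn3 1451851_a_at reached 200 steps on 7 of the 14 arrays, with 544, 208 and 221 steps at 7wk, up to 455 at 6wk and 34 to 161 at 3wk. The other 3 recovered probe sets stayed close to or below that level, with 84 to 252 steps for Csn1s2a 1438694_at, 16 to 206 for Csn1s2a 1455579_at and 20 to 247 for Csn1s2b 1418221_at. Of these, 1455579_at reached 200 steps on 1 array alone and was left out of the tests, so that 9 of 10 were tested. For Csn1s1, both Csn2 probe sets and Csn3 1419735_at only a lower bound could be had, which reached 200 steps on 8, 8, 9 and 11 of the 14 arrays. At 3wk the bound was 13 to 65 steps for Csn1s1 and 110 to 157 for Csn3 1419735_at. For Csn2 it was 50 to 102 in 1420369_a_at and 95 to 205 in 1420370_s_at. A bound under 200 steps does not show whether the level itself was above or below 200.

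**Figure D1:**
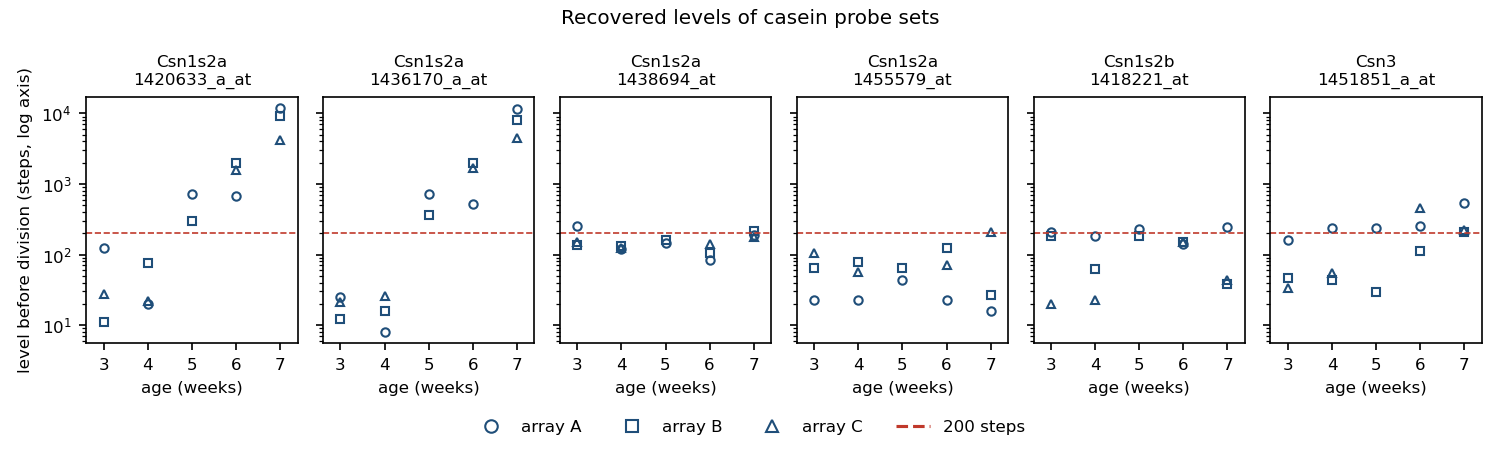
Recovered level before division, in steps on a log axis, of the 6 casein probe sets for which it could be read, by age in weeks with 1 marker per array (A, B, C). The dashed line marks 200 steps. Csn1s2a 1420633_a_at and 1436170_a_at lie far above it at 7wk and below it at 3wk and 4wk, Csn3 1451851_a_at reaches 208 to 544 steps at 7wk, and the other 3 probe sets stay near or below the line.

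Between 3 and 7 weeks, 4 of the 5 casein genes rose in the gland. Csn1s1 rose by 6.70 on the log2 scale and Csn2 by 5.45 and 6.99 in its 2 probe sets. For neither gene is it known whether every 3wk level reached 200 steps, so these sizes carry that limit. Csn1s2a, which was below the trusted level at 3wk, was at least 27.5-fold and at least 28.7-fold higher at 7wk in its 2 called probe sets, with values under 200 steps set to 200. Csn3 rose by 2.02 in 1 of its 2 probe sets, and Csn1s2b did not pass the test. In limma's test with Benjamini-Hochberg adjustment over the 18494 probe sets tested, 6 of the 9 casein probe sets were higher at 7wk than at 3wk and 0 were lower, where 5.95% of all probe sets tested were higher and 2.6% lower. The F test over the 5 ages called the same number, 6 of 9, against 10.3% of all. Their median log2 change at 7wk against 3wk was 5.45, beside 0.08 over all probe sets tested.

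**Figure D2:**
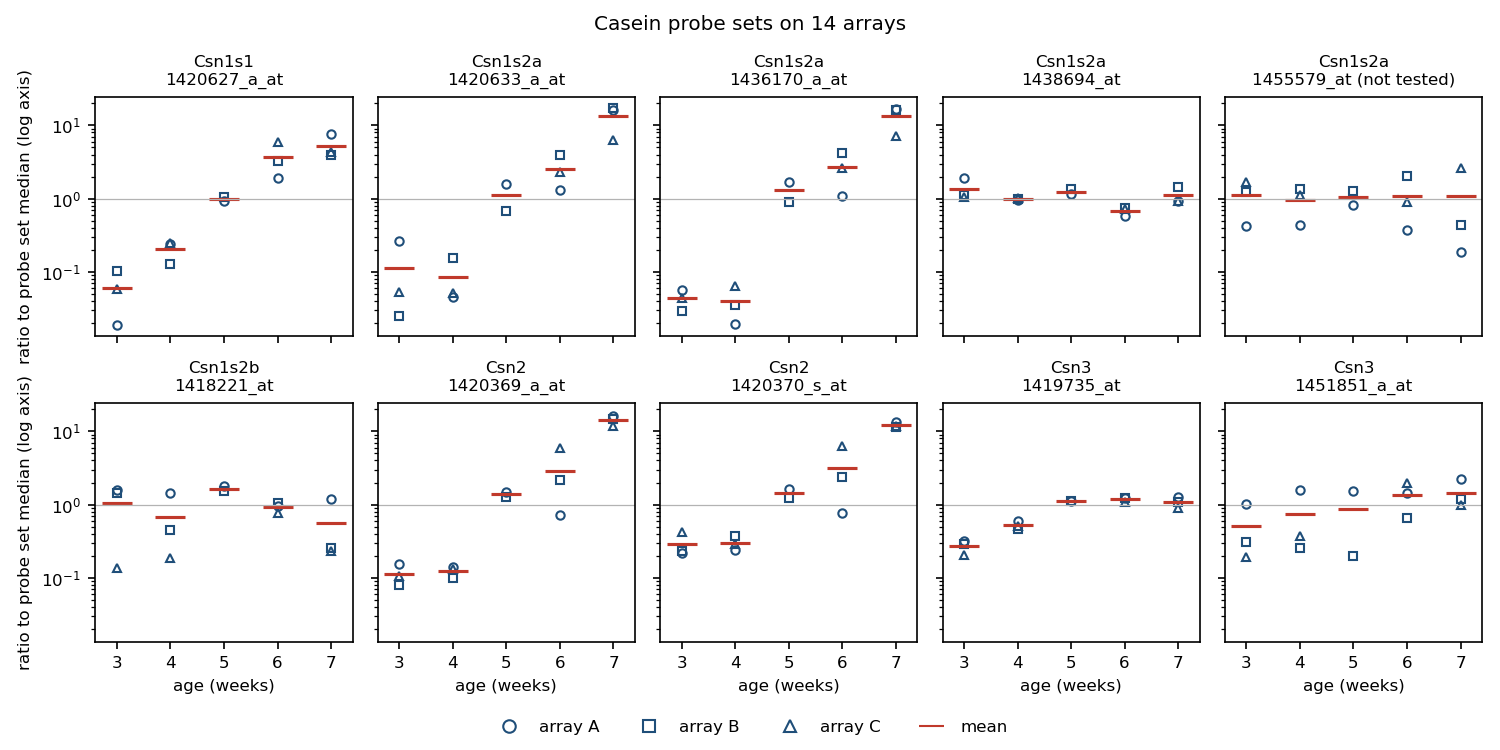
Ratio to the median of the probe set (log axis) against age in weeks for the 10 casein probe sets, 1 marker per array (A, B, C) and a bar for the mean of each age. Csn2 and 2 probe sets of Csn1s2a are highest at 7wk, Csn1s1 is highest at 7wk and 6wk, which overlap, Csn3 1419735_at levels off at 5wk, and the other 4 probe sets have no such course.

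Csn1s1 encodes αs1-casein, the leading αs casein of milk. Its probe set 1420627_a_at had ratios of 0.0191, 0.102 and 0.0593 at 3wk, 0.240, 0.127 and 0.248 at 4wk, 0.944 and 1.06 at 5wk, 1.92, 3.29 and 5.94 at 6wk, and 7.68, 3.90 and 4.31 at 7wk. From 3wk to 6wk each age lay wholly above the one before it, with no overlap, whereas 7wk and 6wk overlapped. The mean was 5.30 ± 2.07 (SD, n = 3) at 7wk and 0.0601 ± 0.0415 (n = 3) at 3wk. The log2 change at 7wk against 3wk was 6.70 (SE 0.58, limma adjusted p = 9.05e-05), at 6wk against 3wk 6.10 (adjusted p = 0.000115) and at 5wk against 3wk 4.36 (adjusted p = 0.00508). At 4wk against 3wk it was 2.01, with the 2 ages apart on these arrays, but the adjusted p was 0.242. The change at 7wk against 6wk was 0.59 (SE 0.58, adjusted p = 0.696).

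Csn2 encodes β-casein, the most abundant casein of many milks. Probe set 1420369_a_at had ratios of 0.154, 0.0804 and 0.108 at 3wk and 0.140, 0.0987 and 0.134 at 4wk, then 1.47 and 1.29 at 5wk, 0.714, 2.16 and 5.84 at 6wk, and 16.1, 14.6 and 11.8 at 7wk. The arrays of 3wk and 4wk overlapped and those of 5wk lay above both, 6wk spread over a range that took in 5wk, and 7wk lay above all other arrays. Means were 14.2 ± 2.23 (SD, n = 3) at 7wk and 0.114 ± 0.0372 (n = 3) at 3wk, a log2 change of 6.99 (SE 0.57, adjusted p = 7.37e-05). At 5wk against 3wk the change was 3.64 (adjusted p = 0.0109) and at 6wk against 3wk 4.24 (adjusted p = 0.00101). Without 5wk A or without 5wk B the call at 5wk was lost, with changes of 3.55 (adjusted p = 0.0764) and 3.73 (adjusted p = 0.0686).

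The other probe set of Csn2, 1420370_s_at, had 0.222, 0.230 and 0.419 at 3wk, 0.241, 0.373 and 0.289 at 4wk, 1.61 and 1.23 at 5wk, 0.773, 2.38 and 6.37 at 6wk, and 13.2, 11.4 and 11.8 at 7wk. It took the same course from a higher starting ratio, again with 6wk A lowest and 6wk C highest at 6wk. Its log2 change was 5.45 (SE 0.58, adjusted p = 0.000312) at 7wk against 3wk and 3.03 (adjusted p = 0.00648) at 6wk against 3wk. At 5wk against 3wk it was 2.34, and the adjusted p of 0.0739 missed the threshold although no 5wk array overlapped 3wk. Over the 14 arrays the log2 values of both Csn2 probe sets had a Pearson r of 0.98, and their deviations from the age means an r of 0.83. These arrays are the same RNA pools for both probe sets.

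Csn1s2a encodes an αs2 casein of rodents. Probe set 1436170_a_at had 0.0577, 0.0296 and 0.0436 at 3wk, 0.0195, 0.0351 and 0.0654 at 4wk, 1.71 and 0.909 at 5wk, 1.09, 4.25 and 2.65 at 6wk, and 16.9, 16.4 and 7.12 at 7wk. As for Csn2, 3wk and 4wk overlapped, 5wk and 6wk overlapped, and 7wk lay above every other array. Its mean was 13.5 ± 5.50 (SD, n = 3) at 7wk and 0.0436 ± 0.0141 (n = 3) at 3wk. The log2 change of 8.22 (SE 0.57, adjusted p = 4.00e-05) rests on 3wk arrays that were all below 200 steps, so its size is not known. With every value below 200 steps set to 200, an alternative chosen after the data were seen, the probe set was at least 27.5-fold higher at 7wk than at 3wk (adjusted p = 1.56e-05) and at least 5.06-fold higher at 6wk (adjusted p = 0.00287). On that scale the 5wk change of at least 2.73-fold no longer passed (adjusted p = 0.118), against a log2 change of 4.89 (adjusted p = 0.0028) on the values as deposited.

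Probe set 1420633_a_at of Csn1s2a had 0.262, 0.0252 and 0.0541 at 3wk, 0.0452, 0.157 and 0.0514 at 4wk, 1.57 and 0.686 at 5wk, 1.31, 3.94 and 2.33 at 6wk, and 16.4, 17.4 and 6.34 at 7wk. It followed 1436170_a_at (r = 0.97 over the 14 arrays, 0.64 for deviations from the age means), with 3wk A and 4wk B above the other arrays of their ages. The log2 change was 7.42 (SE 0.82, adjusted p = 0.000401) at 7wk against 3wk and 5.01 (adjusted p = 0.00294) at 6wk against 3wk. The floor of 200 steps gave at least 28.7-fold at 7wk and at least 5.41-fold at 6wk. At 5wk against 3wk it was 3.87 (adjusted p = 0.0424), a call lost under 17 of 24 alternatives.

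The remaining Csn1s2a probe sets did not share this course. Probe set 1438694_at had 0.929, 1.46 and 0.935 at 7wk and 1.94, 1.13 and 1.05 at 3wk, which overlap. At 6wk it had 0.583, 0.736 and 0.728, all below 3wk. On the values as deposited it was the single casein probe set called lower in any of the 7 comparisons, by a log2 change of -0.96 at 6wk against 3wk (SE 0.24, adjusted p = 0.0237). That call was lost without 3wk A (-0.68, adjusted p = 0.0629), without 6wk A (-0.85, adjusted p = 0.0821), without 6wk A and B (-0.86, adjusted p = 0.23) and with the floor of 200 steps (-0.36, adjusted p = 0.198), and 12 of its 14 arrays were below that floor. The untested 1455579_at ran from 0.187 to 2.60 at 7wk and 0.418 to 1.70 at 3wk, so the ages overlapped. The annotation gives all 4 probe sets to Csn1s2a, and what part of the transcript each one reads was not analysed here.

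Csn1s2b encodes the other αs2 casein of rodents. Its probe set 1418221_at had 1.57, 1.46 and 0.136 at 3wk, 1.43, 0.444 and 0.189 at 4wk, 1.78 and 1.52 at 5wk, 0.952, 1.05 and 0.765 at 6wk, and 1.20, 0.256 and 0.230 at 7wk. The ranges of 3wk, 4wk and 7wk overlapped almost wholly, and 11 of 14 arrays were below 200 steps. The log2 change at 7wk against 3wk was -0.71 (SE 0.98, adjusted p = 0.726), and on the values as deposited no comparison or F test called it. At this level a change was not detectable, which does not show that Csn1s2b was constant.

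In 1 of its 2 probe sets Csn3 rose by 5wk and then levelled off. Probe set 1419735_at had 0.324, 0.290 and 0.204 at 3wk, 0.606, 0.468 and 0.512 at 4wk, 1.11 and 1.14 at 5wk, 1.21, 1.23 and 1.10 at 6wk, and 1.29, 1.09 and 0.913 at 7wk. The ages 3wk, 4wk and 5wk did not overlap, while 5wk, 6wk and 7wk did. The log2 change against 3wk was 2.07 at 5wk (SE 0.21, adjusted p = 0.000746), 2.14 at 6wk (SE 0.19, adjusted p = 9.53e-05) and 2.02 at 7wk (SE 0.19, adjusted p = 0.00013). At 4wk against 3wk it was 0.97 (SE 0.19, adjusted p = 0.0858), which did not pass, and at 7wk against 6wk -0.12 (SE 0.19, adjusted p = 0.83). The other Csn3 probe set, 1451851_a_at, ran from 0.977 to 2.22 at 7wk and 0.194 to 1.02 at 3wk, and the 2 ages overlapped. Its log2 change of 1.79 had an SE of 0.89 and an adjusted p of 0.263.

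Taken week by week, the first calls fell between 4 and 5 weeks. At 4wk against 3wk limma called 0 of 9 casein probe sets, beside 0.135% of all probe sets tested that were higher, and 2 had an unadjusted p under 0.05. These were Csn1s1 and Csn3 1419735_at, for which every 4wk array also exceeded every 3wk array, as it did for 10.7% of all. The share of all probe sets with an unadjusted p under 0.05 was not counted. At 5wk against 4wk 3 were higher, beside 0.314% of all: Csn1s2a 1436170_a_at by 5.13 (SE 0.64, adjusted p = 0.0114), Csn2 1420369_a_at by 3.48 (SE 0.63, adjusted p = 0.038) and Csn3 1419735_at by 1.09 (SE 0.21, adjusted p = 0.0464). For 8 of 9 the 2 ages did not overlap and 5wk was higher, as was the case for 15.7% of all probe sets tested. Among these, Csn1s2a 1438694_at was at 118 to 134 steps at 4wk and 147 to 160 at 5wk. Csn1s2b 1418221_at was at 23 to 180 and 185 to 233 steps. For these probe sets the difference lies mostly below the trusted level of 200 steps, so it does not show a rise. With single arrays of ages other than 5wk left out, the casein calls numbered 1 to 4, and those over all probe sets tested 12 to 209. The calls of Csn2 1420369_a_at and Csn3 1419735_at were lost with the same sign in 13 and 16 of 24 alternatives. The Csn3 call was also lost relative to a list of luminal genes, described below, where its sign turned (-0.0574, adjusted p = 0.873). With the hybridisation controls as a covariate 0 of the 3 calls were left, and 16 of all probe sets tested were called, against 139 without it. With the floor of 200 steps Csn1s2a 1436170_a_at was no longer called (at least 2.62-fold, adjusted p = 0.184).

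At 5wk against 3wk 5 casein probe sets were higher, beside 2.39% of all, and at 6wk against 3wk 6 were higher and 1 lower, beside 9.13% and 4.57%. At 6wk against 5wk limma called 0 of 9, beside 0.0433% of all that were higher. An unadjusted p under 0.05, whose share of all probe sets was not counted, was found for 2. These were Csn1s1 with a change of 1.75 (adjusted p = 0.397) and Csn1s2a 1438694_at with -0.87 (adjusted p = 0.296). Csn1s2a 1438694_at was below 200 steps on all these arrays, at 147 to 160 at 5wk and 84 to 139 at 6wk.

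Between 6 and 7 weeks, the last step, 1 of 9 casein probe sets passed, Csn2 1420369_a_at, beside 0.827% of all. The log2 changes at 7wk against 6wk were 2.75 (SE 0.57, adjusted p = 0.0491) and 2.42 (SE 0.58, adjusted p = 0.0873) for the Csn2 probe sets, and 2.41 (adjusted p = 0.218) and 2.44 (adjusted p = 0.0829) for Csn1s2a 1420633_a_at and 1436170_a_at. All 3 arrays of 7wk exceeded all 3 of 6wk for these 4 and for Csn1s2a 1438694_at, so 5 of 9 did not overlap, beside 10.3% of all probe sets. Csn1s2a 1438694_at was at only 84 to 139 steps at 6wk and 175 to 213 at 7wk. The call of Csn2 1420369_a_at was lost in 19 of 24 alternatives, among them leaving out any single array other than 6wk C (changes of 1.98 to 2.88, adjusted p = 0.0582 to 0.167). With the floor of 200 steps both Csn1s2a changes passed at the same size (adjusted p = 0.0136 and 0.0135), and 4 of 9 casein probe sets were called. Over all probe sets tested 256 were called with the floor, against 177 on the values as deposited.

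The 6wk arrays differed among themselves in the caseins and in the controls of RNA quality. For the actin control the 5′ signal over the 3′ signal, on the log2 scale, was -0.46, -0.79 and -0.08 on 6wk A, B and C, against -0.26 to 0.28 on all other arrays, and for pyruvate carboxylase it was -2.78, -2.51 and -1.81, against -1.25 to 0.90. Csn2 was lowest on 6wk A and highest on 6wk C. Both Csn1s2a probe sets that followed age were highest on 6wk B, where Csn1s2a 1420633_a_at was at 3.94 and 1436170_a_at at 4.25, against 2.33 and 2.65 on 6wk C. The part of RNA quality in these differences was not tested. Without 6wk A and B, the Csn2 1420369_a_at change at 7wk against 6wk was 1.26 (adjusted p = 0.344), and at 6wk against 3wk 5.73 (adjusted p = 0.000248). The hybridisation controls, RNAs added to each sample before hybridisation, averaged -1.86, -0.79 and -0.97 on the log2 scale at 7wk, against -0.58 to 1.10 on all other arrays. In a fit that included them as a covariate all 6 casein calls at 7wk against 3wk held, while the calls over all probe sets tested numbered 352, against 1580 without the covariate. The same fit called 0 casein probe sets at 5wk against 4wk and 0 at 7wk against 6wk. Over all probe sets tested it called 16 and 18 there, against 139 and 177 without the covariate.

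**Figure D3:**
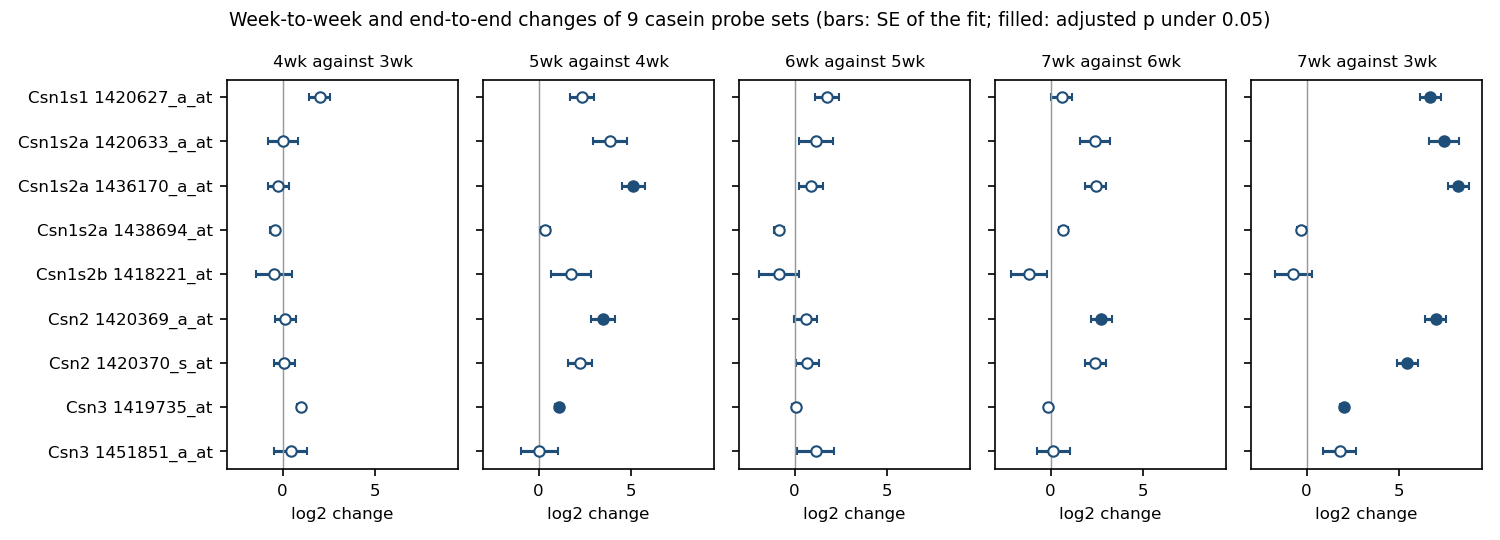
Log2 change of the 9 tested casein probe sets in each week-to-week comparison and at 7wk against 3wk, with bars for the SE of the fit and filled markers where limma's adjusted p was under 0.05. Filled markers number 0, 3, 0, 1 and 6 from left to right.

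The caseins did not all change by the same amount. For each of the 10 pairs of casein genes, the per-array difference of the 2 genes' mean log2 values was compared between the 6 arrays of 6wk and 7wk and the 6 of 3wk and 4wk with a two-sided exact permutation test, which can give no p under 0.00216. Csn1s1 changed by 3.85 more than Csn3 (exact p = 0.00216, 0.00722 adjusted over the 10 pairs), Csn2 by 3.32 more (exact p = 0.00433, adjusted 0.00866) and Csn1s2a by 2.76 more (exact p = 0.00216, adjusted 0.00722). With the floor of 200 steps these differences were 4.54, 4.01 and 1.39 (adjusted exact p = 0.00271, 0.00271 and 0.0168). The floor acted only on probe sets with a recovered level, so Csn1s1 and Csn2 kept their changes of 5.40 and 4.87. The change of Csn3 went from 1.54 to 0.86 and that of Csn1s2a from 4.31 to 2.24. The larger differences of Csn1s1 and Csn2 from Csn3 therefore reflect the lowering of Csn3 alone. The pairs of Csn1s2b with Csn1s1, Csn2 and Csn1s2a make up the rest of the 6 of 10 that were under 0.05. Since Csn1s2b was below 200 steps on 11 of 14 arrays, the size of its differences is not given.

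Among Csn1s1, Csn2 and Csn1s2a no pair was told apart by this test on the values as deposited, averaged over each gene's probe sets. Csn1s1 minus Csn2 was 0.53 (exact p = 0.506), Csn1s1 minus Csn1s2a 1.09 (exact p = 0.247) and Csn1s2a minus Csn2 -0.56 (exact p = 0.238). The value of Csn1s2a averages 3 probe sets, of which 1438694_at did not follow the others. With 1 probe set per gene, that of smallest F test p in these data, Csn1s2a minus Csn2 was 1.58 (exact p = 0.00433, adjusted 0.00618). On that choice Csn1s1 minus Csn2 was -0.14 and Csn1s1 minus Csn1s2a -1.72 (adjusted exact p = 0.864 and 0.0914). The early level of the Csn1s2a probe sets that followed age was also below 200 steps. The floor understates the change of Csn1s2a and leaves Csn1s1 and Csn2 as they were. With it the differences were 3.15 for Csn1s1 minus Csn1s2a and -2.62 for Csn1s2a minus Csn2 (adjusted exact p = 0.00271 for both). The place of Csn1s2a relative to Csn1s1 and Csn2 is therefore not known.

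Markers of the luminal epithelium rose with the caseins. Of 23 tested genes of a luminal and pan-epithelial list, 22 were higher at 7wk than at 3wk, where 7.12% of all genes tested were higher, and the median log2 change was 2.01, beside 0.09 over all genes. The mean log2 ratio of the list ranged from 0.29 to 0.40 on the 7wk arrays and from -2.01 to -1.46 on the 3wk arrays. At 7wk against 6wk limma called 0 of 23, beside 0.29% of all genes that were higher, and the median change was -0.12. Cdh1, the epithelial cadherin, changed by 2.43 and Esrp1, a splicing factor of epithelial cells, by 2.27 at 7wk against 3wk.

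Each casein was therefore also set against this list, by subtracting the list's mean log2 ratio on each array, an alternative added after seeing the data. On this scale Csn3 1419735_at had -0.04, -0.17 and -0.43 at 7wk and 0.38, -0.28 and -0.83 at 3wk. The 2 ages overlapped, and the log2 difference was 0.03 (SE 0.29, adjusted p = 0.918). Csn2 1420369_a_at had 3.61, 3.58 and 3.26 at 7wk and -0.69, -2.13 and -1.75 at 3wk, with every 7wk array above every 3wk array.

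The other calcium-sensitive caseins that had been called also stayed higher relative to the luminal list at 7wk against 3wk. The log2 difference was 4.71 (SE 0.44, adjusted p = 2.40e-06) for Csn1s1, 5.00 (SE 0.51, adjusted p = 3.10e-06) and 3.46 (SE 0.50, adjusted p = 2.75e-05) for Csn2. Both Csn1s2a probe sets that followed age passed as well (adjusted p = 2.37e-06 and 7.54e-05). Their 3wk arrays were all below 200 steps, and with the floor the difference was at least 2.79 for 1436170_a_at and at least 2.86 for 1420633_a_at, which was not tested. These 5 of 9 casein probe sets were higher where 0.362% of all probe sets tested were higher, on a scale that places 92.6% of all lower because the list itself rose. Lower on it were Csn1s2a 1438694_at (-2.27, adjusted p = 3.94e-05) and Csn1s2b 1418221_at (-2.70, adjusted p = 0.0208), both below 200 steps on most arrays. At 7wk against 6wk both Csn2 probe sets passed on this scale, with 2.93 (adjusted p = 0.0282) and 2.59 (adjusted p = 0.0362), beside 0.73% of all. At 6wk against 3wk Csn2 1420370_s_at did not pass (0.87, adjusted p = 0.11). The luminal list includes Elf5 and Ehf, which also stand among the regulators.

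**Figure D4:**
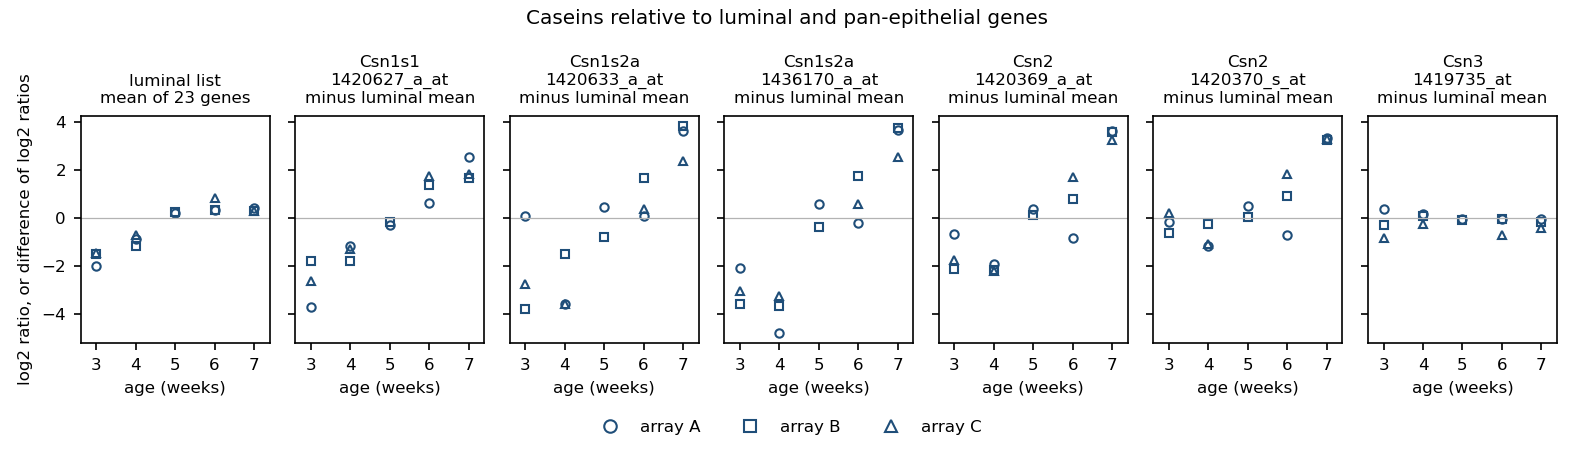
Mean log2 ratio of 23 luminal and pan-epithelial genes (left panel) and log2 ratio of each called casein probe set minus that mean, by age in weeks with 1 marker per array (A, B, C). Csn3 1419735_at stays around 0 at every age, and the probe sets of Csn1s1, Csn1s2a and Csn2 lie higher at 7wk than at 3wk.

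The lists of other cell types gave smaller shares of higher genes than the luminal list, beside the 7.12% of all genes tested that were higher at 7wk than at 3wk and the 2.99% that were lower. Of 13 basal and myoepithelial genes 5 were higher at 7wk than at 3wk (median log2 change 0.71), of 10 adipocyte genes 3 were lower (median -0.32), and of 7 brown adipocyte genes 5 were lower (median -1.43). Of 11 lymphocyte and plasma cell genes 2 were higher, Igha (3.43) and Jchain (2.71), both of antibody-secreting cells. Of 7 skeletal muscle and 2 salivary gland genes 0 were called, and of 8 endothelial genes 1. The mean log2 ratio of the brown adipocyte list ran from -0.71 to -0.06 at 7wk and 0.79 to 1.22 at 3wk. Ratios carry no level, so none of these lists can be said to be at 0, and the part of these cells in the casein changes was not tested.

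Other genes of milk changed unevenly. Of 23 tested genes of a list of milk protein and secretory genes other than caseins, 10 were higher and 2 lower at 7wk than at 3wk, where 7.12% and 2.99% of all genes tested were, and the list's median log2 change was 0.66. Lalba encodes α-lactalbumin, the cofactor of lactose synthesis, and its ratio averaged 2.33 ± 1.06 (SD, n = 3) at 7wk and 0.255 ± 0.0335 (n = 3) at 3wk, a change of 3.07 (SE 0.40, adjusted p = 0.000971). Btn1a1 encodes butyrophilin, a protein of the membrane around milk fat droplets, and averaged 2.24 ± 0.432 at 7wk and 0.237 ± 0.0933 at 3wk, a change of 3.32 (adjusted p = 7.66e-05). Muc15, a mucin of the same membrane, changed by 3.40, Lcn2, a siderophore-binding protein, by 2.52, Ltf, lactoferrin, by 2.35, and Mfge8, a milk fat globule protein, by 1.82, all called.

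Wap, the major whey protein of mouse milk, gave no such change. Its mean ratio was 0.912 ± 0.0978 (SD, n = 3) at 7wk and 1.15 ± 0.250 (n = 3) at 3wk, a log2 change of -0.32 (SE 0.28, adjusted p = 0.538). Fabp3, a fatty acid-binding protein of heart, brown fat and lactating gland, fell by 4.11 on the log2 scale, and Cidea, which acts on lipid droplets in brown fat and in milk secretion, fell by 1.43. Both genes are also expressed in brown adipocytes, and Cidea stands in that list too.

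Regulators of casein transcription also changed unevenly. Of 30 tested genes of prolactin and STAT5 signalling and casein regulation, 5 were higher at 7wk than at 3wk and 1 was lower, where 7.12% and 2.99% of all genes tested were, and the median change was 0.27. Elf5, which works with STAT5 in alveolar differentiation, changed by 2.91 (SE 0.29, adjusted p = 0.000178), Ehf, a related ETS factor, by 2.41, Gata3, a factor of luminal cell identity, by 2.75, and Id2, required for alveolar development, by 1.01. Ptpn1, a tyrosine phosphatase of the insulin and JAK2 pathways, changed by 0.67, and Cav1, which restrains prolactin signalling in the gland, by -0.70, both called.

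Stat5a, the main STAT5 of the mammary gland, averaged 1.28 ± 0.179 (SD, n = 3) at 7wk and 0.878 ± 0.121 (n = 3) at 3wk, a log2 change of 0.54 that did not pass (SE 0.22, adjusted p = 0.155). Stat5b changed by 0.37 (adjusted p = 0.363), the glucocorticoid receptor gene Nr3c1 by -0.13 (adjusted p = 0.589) and Cebpb by -0.06 (adjusted p = 0.903), none of which passed. Nfic, a member of the NF1 family, was called lower at 6wk against 3wk (-2.26, adjusted p = 0.00423) but not at 7wk (-0.17, adjusted p = 0.849). The 6wk arrays had the lowest 5′ over 3′ signal of the pyruvate carboxylase control. The part of RNA quality in the Nfic call was not tested. No values are reported here for Prlr, the prolactin receptor gene.

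**Figure D5:**
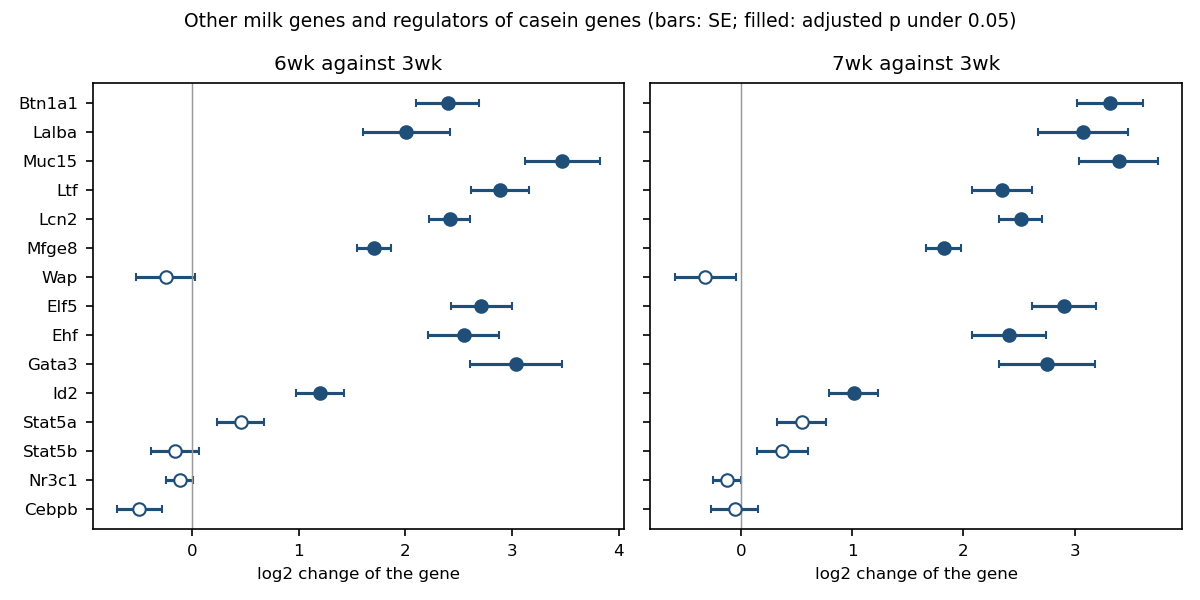
Log2 change of the mean over each gene's probe sets at 6wk and at 7wk against 3wk for milk genes other than caseins and for regulators of casein genes, with bars for the SE and filled markers where limma's adjusted p was under 0.05. Btn1a1, Lalba, Muc15, Ltf, Lcn2, Mfge8, Elf5, Ehf, Gata3 and Id2 are filled in both panels, and Wap, Stat5a, Stat5b, Nr3c1 and Cebpb are open in both.

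Genes that act on caseins after translation mostly did not pass. Of 10 tested genes of casein phosphorylation and secretion, 2 were higher at 7wk than at 3wk, where 7.12% of all genes tested were: Atp2c1, a Golgi pump for calcium and manganese, by 1.37 (SE 0.26, adjusted p = 0.00703), and Ano1, a chloride channel of secretory epithelium, by 2.42 (SE 0.20, adjusted p = 7.27e-05). Slc30a4, a zinc transporter, changed by 0.37 (adjusted p = 0.231), and Fam20c, the Golgi kinase that phosphorylates caseins, by 0.13 (adjusted p = 0.733). Of the genes that neighbour the caseins on the chromosome, 5 of a list of 20 were tested and 1 was higher at 7wk, beside the same 7.12%, namely Jchain, the joining chain of antibodies. Smr2, the tested gene nearest to Csn3, changed by -0.53 (adjusted p = 0.446), and Sult1b1, Sult1d1 and Sult1e1, next to Csn1s1, had no probe set that passed the level filter.

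The genes whose course over the 14 arrays was most like each casein's were named by Pearson correlation of log2 values among 16901 probe sets, as a description: the arrays are shared, and any gene that rises with age scores high. For Csn1s1 they were Tfap2c (r = 0.98), Cldn7, St14, Nck2 and Stc2 (r = 0.97), of which Cldn7 and St14 are in the luminal list. For Csn2 they were Tph1 (r = 0.97), Stard10, Atp1b1, Car8 and Cd82, and for Csn1s2a Tph1 (r = 0.95), Btn1a1, Folr1, Myh14 and Tmc4. Tph1, the enzyme that starts serotonin synthesis, thus headed both lists, and Btn1a1 and Folr1 are in the milk list. For Csn3 they were Retreg1 (r = 0.95), Tnfrsf21, Enah, Ptpn1 and Dst, none of which headed another casein. The course of each casein was the mean log2 value of its tested probe sets. That of Csn3 joins 1419735_at and 1451851_a_at, which had an r of 0.57. That of Csn1s2a includes 1438694_at, with an r of -0.16 to 1420633_a_at and -0.22 to 1436170_a_at. For Csn1s2b, which reached 200 steps on only 3 of the 14 arrays, the closest was Dmd (r = 0.89). Dmd, the dystrophin gene, changed by -0.10 at 7wk against 3wk.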

How the data were processed

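Affymetrix arrays were hybridised with biotin-labelled cRNA from pooled total RNA of whole glands, per the labels' protocols. The signal software, its scaling and any detection calls were not given in the sources used here. What the authors deposited are linear ratios: a tolerance of 0.001 around 1 takes in the median of 98.5% of the 22690 probe sets, so each had been divided by that median, with a minimum divisor for 337. Array medians ran from 0.953 to 1.017, so no further normalization was applied. For those 337, 95.5% to 100% of an array's values were whole multiples of a step specific to the array, within rounding, and from these steps the level before division was recovered for 8840 probe sets (39.0%). No 2 arrays were identical.

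The deposited ratios were converted to log2 without an offset. Left out were 64 control probe sets and 4132 with a recovered level under 200 steps on all arrays or all but 1, which left 18494 probe sets and, as means over a gene's probe sets, 10679 genes of 12394 named. Names came from the platform annotation, and 20364 probe sets matched RefSeq (GRCm38.p6). limma 3.58.1 in R 4.3.3 fitted age as a factor to all 14 arrays, with empirical Bayes, 7 comparisons and an F test, two-sided, Benjamini-Hochberg adjustment within each and a threshold of 0.05. Recovery and model were tested on simulated data. The rest used pandas 2.3.3, numpy 2.4.6 and matplotlib 3.10.9 under Python 3.11.15.

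The members and gene lists were chosen with earlier results of these data known. All casein probe sets are named; of the milk, regulator, secretion and neighbour lists the members with the smallest p of the F test (up to 6 per list) and 9 fixed genes, Wap, Lalba, Btn1a1, Prlr, Stat5a, Stat5b, Elf5, Nr3c1 and Cebpb; and of cell type lists up to 2 members. The 5 probe sets most correlated with each casein gene are named too. Cidea and Ptpn1, outside that rule, were named after their values were seen. Alternatives were no filter, an offset of 0.05, quantile normalization, median centring, a block for the array letter, robust moderation, the hybridisation controls as a covariate, and arrays left out, plus the floor of 200 steps and the luminal scale, added after seeing the data.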

Additional observations from a re-analysis of the deposited data

How the results depend on the processing

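Of the 22 casein changes called in the 7 comparisons, each under 24 alternatives, 9 kept direction and call throughout. Of 528 values, 78 kept the sign but lost the call, and 2 turned sign and also lost the call. Those 2 were Csn3 1419735_at relative to the luminal list, at -0.0237 for 6wk against 3wk and -0.0574 for 5wk against 4wk. The counts of called casein probe sets at 6wk against 3wk, 6wk against 5wk and 7wk against 3wk, and over the F test, stayed within 1.5 times under every alternative. These counts take higher and lower calls together. Relative to the luminal list, 17199 of all 18494 probe sets were called at 7wk against 3wk and 17583 at 6wk against 3wk. At 7wk these included Csn1s2b, lower (-2.70), while the Csn3 call was lost (0.03, limma adjusted p = 0.918). The Csn1s2a probe set called lower on the deposited values was also called lower there, at 7wk (-2.27) and 6wk (-3.12). A steady count is therefore not a steady set of calls. At 4wk against 3wk the count of 0 became 1 with the floor of 200 steps, where 48 of all 18494 probe sets were called, and 2 relative to the luminal list. Those 2 went opposite ways, Csn1s1 higher (1.28) and Csn1s2a 1438694_at lower (-1.16), where 0.205% of all were higher and 45.1% lower. At 5wk against 4wk the count of 3 became 1 without the filter and with a replicate block, and 0 with the hybridisation controls as a covariate. Over all probe sets the count of 139 became 73, 35 and 16 in turn. At 7wk against 6wk the count of 1 became 0 without the filter, with quantile normalization, the replicate block, robust moderation or the hybridisation covariate. Over all probe sets the count of 177 became 95, 185, 137, 163 and 18 in turn. The casein count became 2 with the offset of 0.05 or relative to the luminal list, and 4 with the floor. In these fits 177, 139 and 256 of all were called. Without 6wk A and B the Csn2 1420369_a_at change was 1.26, against 2.75 on all arrays. With 1 array left out in turn, counts ran from 3 to 6 at 5wk against 3wk, 1 to 4 at 5wk against 4wk and 0 to 2 at 7wk against 6wk. Of the 10 pairs of casein genes 6 were under 0.05, 7 with 1 probe set per gene, and 9 with the floor, which acted only on probe sets with a recovered level. The cause was not tested. Arrays of different ages share only a letter, which does not pair them: the correlation of deviations between arrays of 1 letter had a median of 0.01 (-0.07 to 0.09). Recovered levels under 200 steps limit what can be said of Csn1s2b, Csn3 1451851_a_at and Csn1s2a at 3wk and 4wk. For Csn1s1, Csn2 and Csn3 1419735_at only lower bounds were had, so it is not known whether all their 3wk levels reached 200 steps.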
